A study of Mus musculus with 12 samples.

Results

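The cytosolic ribosomal protein genes of mouse embryonic fibroblasts are described here across 4 genotype labels. They were taken by name: every row of the deposited expression table whose symbol is Rpl or Rps followed by a number, with or without a closing a, l or x, together with Rplp0, Rplp1, Rplp2 and Rpsa. Rows whose symbol marks a pseudogene with -ps were left out. Rps4l fits the rule and was kept, although it is annotated as a transcribed processed pseudogene. The rule found 81 genes among 24054 rows, and 79 of them were among the 14876 genes with enough counts to test. Rpl3l and Rpl10l, paralogs of Rpl3 and Rpl10, were the other 2, with at most 3 and at most 1 expected counts in a library. Because the rule used names only, all 79 tested genes are kept in every count below.

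Polyadenylated RNA was sequenced from primary mouse embryonic fibroblasts (MEF), cultured connective tissue cells of the embryo, with 3 libraries for each of the labels Blm KO, Recql KO, double KO (Blm and Recql KO together) and WT. Blm and Recql encode a pair of RecQ family DNA helicases. The study set each genotype against wild type to find differentially expressed transcripts. All cultures had 3% O2, 5% CO2 and 10% fetal bovine serum. The labels used here name no strain, embryo age, sex, passage or targeted exons, and are silent on whether replicates are separate embryos or cultures. The p-values measure the spread between libraries of a label, pooled over the 12. In WT that spread may be technical. In each KO label the level of Y-linked transcripts differed between libraries, as given below, so those 3 libraries are not all repeats of 1 sample.

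Library totals lay between 47758552 and 59296354 expected counts, the estimates that the RSEM program makes when reads fit several genes. Levels are in CPM, counts scaled to library size by the trimmed mean of M values (TMM), and are given as mean ± SD over 3 libraries. Blm stood at 4.13 ± 1.32 CPM in Blm KO and 5.5 ± 1.57 CPM in double KO libraries, and at 15.6 ± 1.14 CPM in Recql KO and 20.7 ± 1.85 CPM in WT libraries. Recql stood at 22.4 ± 1.49 CPM in Blm KO, 25.2 ± 4.16 in Recql KO, 26.3 ± 8.56 in double KO and 27.7 ± 1.86 in WT libraries. Its log2 fold change against WT was -0.13 ± 0.20 (SE) in the libraries labelled Recql KO (edgeR quasi-likelihood test, adjusted p = 0.642). A count over the whole gene need not show the loss of a few exons, so the Recql transcript does not check that label. Below, Recql KO and double KO stand for the libraries labelled so, and directions rest on those labels. The sum of fibroblast markers was high in all 12 libraries. Col1a1, Col1a2, Col3a1, Pdgfra, Pdgfrb, Thy1, Vim, Fn1, Lum and Dcn summed to 45398 to 49614 CPM in Blm KO and 21149 to 26027 in Recql KO libraries. They summed to 40615 to 47742 in double KO and 31732 to 34078 in WT libraries. Single markers could be low, with Lum at 1.31 CPM in Recql KO replicate 2 and Dcn at 9.65 CPM in Blm KO replicate 2.

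The cytosolic ribosome has a small 40S and a large 60S subunit, and each ribosomal protein is used once in nearly every ribosome, apart from the acidic stalk proteins. Their mRNAs belong to the most abundant and shortest of the cell. They open with a run of pyrimidines, the terminal oligopyrimidine (TOP) motif, through which mTORC1 and LARP1 set how strongly they are translated. Free ribosomal proteins are degraded, and RPL5 and RPL11 with the 5S RNA bind MDM2 when assembly fails, which stabilises p53.

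Promoter letters were searched because members that move together may share them. RefSeq windows of 300 bases (250 before and 50 after a transcript start, build GRCm38.p6) were present for 60 of the 81 genes, with 72 windows. The letters CGGAAG on either strand, the core of sites for ETS factors such as GABP, stood in 61.1% of these windows and in 16.9% of all 32851 windows in the reference. The letters AAGATGG on either strand, the core of YY1 sites, stood in 15.3% of member windows and 6.34% of all windows. The pyrimidine run CTCTTTC on the gene's strand stood in 20.8% of member windows and 3.99% of all windows. A match is a description of letters only.

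The stretches below run from 80 bases before to 20 after the RefSeq start. They are shown for 3 genes that were called lower in the libraries labelled Recql KO than in WT (Rps2, Rpsa and Rpl18). The other 3 genes were not called there (Rps6, Rps18 and Rps27). Not called does not mean unchanged. Rps6, Rps18 and Rps27 averaged 718, 316 and 177 CPM in Recql KO and 867, 366 and 220.5 CPM in WT. The called Rpl18 averaged 208 CPM in Recql KO and 251 CPM in WT. Capitals mark matches to the 3 letter strings, read 5′ to 3′ on the gene's strand.

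Rps2: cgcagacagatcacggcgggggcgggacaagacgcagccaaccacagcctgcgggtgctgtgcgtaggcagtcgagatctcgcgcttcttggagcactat

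Rpsa: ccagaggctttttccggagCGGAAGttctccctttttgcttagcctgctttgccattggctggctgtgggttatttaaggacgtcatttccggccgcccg

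Rpl18: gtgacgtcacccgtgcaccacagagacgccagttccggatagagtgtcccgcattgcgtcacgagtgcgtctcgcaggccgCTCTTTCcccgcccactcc

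Rps6: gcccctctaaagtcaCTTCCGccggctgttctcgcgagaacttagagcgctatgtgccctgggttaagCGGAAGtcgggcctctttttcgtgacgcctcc

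Rps18: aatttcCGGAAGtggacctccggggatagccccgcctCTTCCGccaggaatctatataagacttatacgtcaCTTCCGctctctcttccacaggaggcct

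Rps27: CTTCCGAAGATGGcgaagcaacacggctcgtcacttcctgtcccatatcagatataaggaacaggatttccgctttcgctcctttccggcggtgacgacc

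Their positions in GRCm38 are chr17:24719983-24720082, plus strand for Rps2, chr9:120127686-120127785, plus strand for Rpsa, chr7:45717991-45718090, plus strand for Rpl18, chr4:86857348-86857447, minus strand for Rps6, chr17:33955646-33955745, minus strand for Rps18 and chr3:90213629-90213728, minus strand for Rps27. Rpsa held 1 ETS core and Rpl18 1 pyrimidine run. Rps18 held 3 ETS cores, Rps6 held 2, and Rps27 held 1 ETS core that runs directly into a YY1 core. The Rps2 stretch held none, although a 300-base RefSeq window of the gene held an ETS core. Among the 58 tested genes with a window, 7 of 41 with an ETS core (17.1%) and 5 of 17 without one (29.4%) were called lower in the libraries labelled Recql KO than in WT. No difference between these shares was tested.

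Taken as a class, ribosomal protein mRNA made up a smaller share of the RNA in the libraries labelled Recql KO than in any other library. The 81 genes held 3.71%, 3.42% and 3.68% of expected counts in Blm KO libraries. They held 2.86%, 2.92% and 2.87% in the libraries labelled Recql KO. They held 3.31%, 3.24% and 4.15% in the libraries labelled double KO, and 3.75%, 3.30% and 3.32% in WT libraries. The 3 Recql KO values lay below all 9 others, while Blm KO, double KO and WT overlapped and replicate 3 of double KO stood above the rest. The group means were 3.6% ± 0.163 in Blm KO, 2.88% ± 0.033 in Recql KO, 3.57% ± 0.505 in double KO and 3.46% ± 0.255 in WT (SD, n = 3 each). In bulk RNA, less of this mRNA in each cell and fewer cells that are rich in it cannot be told apart.

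The balance of large and small subunit genes varied little. The ratio of 60S to 40S expected counts was 1.48 in each of the 3 Blm KO libraries. For Recql KO it was 1.55, 1.52 and 1.52, for double KO 1.49, 1.52 and 1.49, and for WT 1.51, 1.5 and 1.47. The Recql KO values were above all WT values and above all Blm KO values, and overlapped the double KO range.

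**Figure D1:**
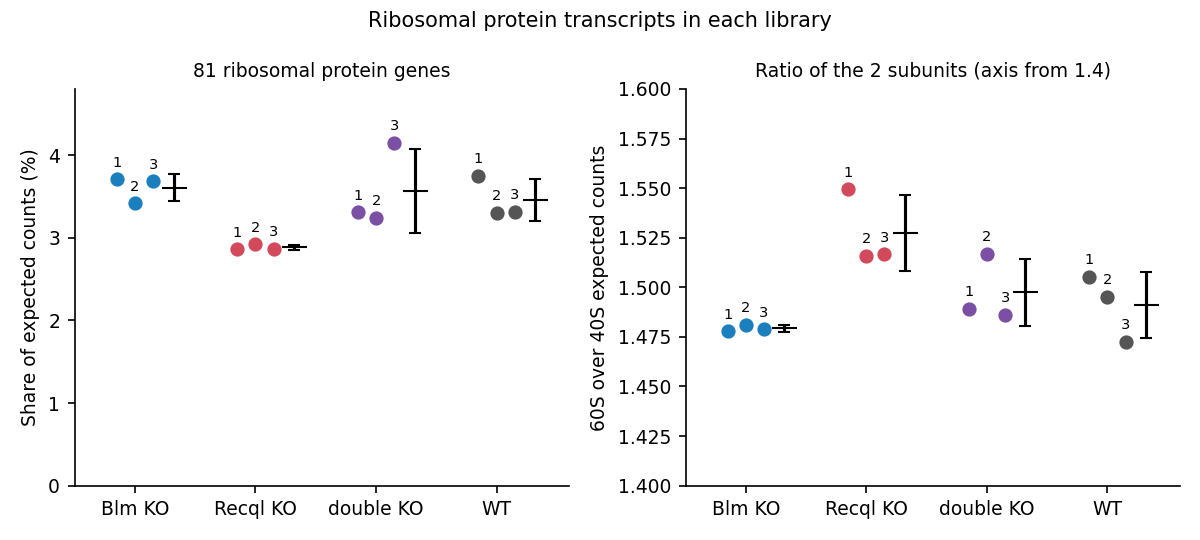
Left, the share of expected counts held by the 81 genes (percent) in each library; right, the ratio of 60S to 40S expected counts on an axis that starts at 1.4. Points are libraries with their replicate numbers, and black marks are the mean ± SD of 3; the 3 Recql KO libraries lie at 2.86% to 2.92%, under the other 9.

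Within the class, levels per kb of transcript spanned a narrow range apart from a short tail. CPM per kb, averaged over 12 libraries and using the shortest principal GENCODE M21 transcript, had a median of 524 over the 79 genes, and 68 of them lay between 300 and 1200. The highest were Rpl23a at 1190.3, Rps2 at 1153, Rpl41 at 994, Rps12 at 964 and Rps6 at 944 CPM per kb. Rpl41 encodes a very short basic peptide and Rps6 the main substrate of S6 kinase. The lowest were Rpl39l at 7.58, Rpl30 at 24.1, Rps4l at 45.9, Rpl26 at 52.3 and Rpl34 at 70.5 CPM per kb. Rpl39l is a paralog used mainly in the male germ line, and Rps4l is annotated as a transcribed processed pseudogene, but Rpl26, Rpl30 and Rpl34 encode proteins of every 60S subunit.

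The 3 low 60S genes share a property of the counting. Processed copies of ribosomal protein genes are common in the genome, and RSEM splits reads that fit several copies, which leaves counts that are not whole. Rpl26, Rpl30 and Rpl34 had counts that were not whole (beyond 0.005) in all 12 libraries, as did 14 of the 81 genes, while 28 were whole in every library. Over the 12 libraries Rpl34 held 22527 expected counts and its pseudogene row Rpl34-ps1 held 79505, which is 353% of the parent. The other 6 named pseudogene rows held between 0.243% and 4.29% of their parent's count. The level of Rpl34 is therefore uncertain, and so may be those of Rpl26 and Rpl30. Rps20 stands low at 95.0 CPM per kb with an annotated transcript of 3706 bases, so its level per kb is uncertain as well.

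**Figure D2:**
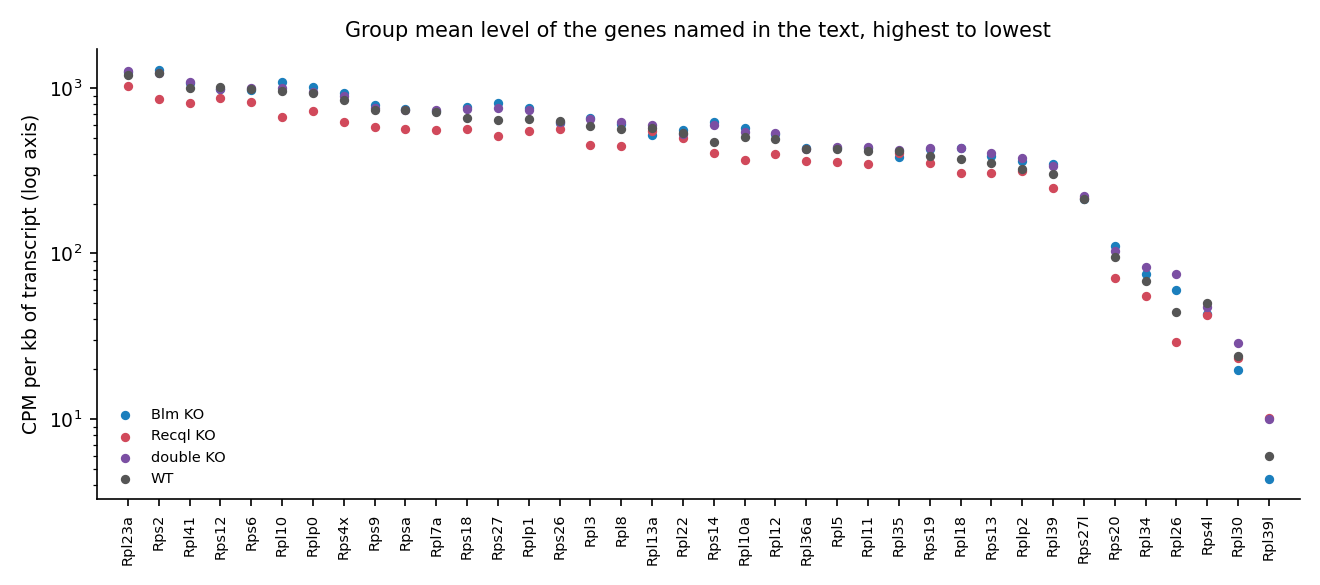
Group mean CPM per kb of transcript (log axis) for the 38 members named in the text, ordered from highest to lowest; each dot is the mean of 3 libraries of 1 label. Most genes form a shallow slope with the Recql KO dot lowest, and the tail from Rps20 to Rpl39l averages below 100.

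No ribosomal protein gene passed the test between Blm KO and WT. The count was 0 of 79 at an adjusted p under 0.05 (edgeR's quasi-likelihood test, Benjamini-Hochberg adjustment over 14876 genes), against 0.753% of all genes. Of the 79, 3 had an unadjusted p under 0.05, against 18.9% of all genes, and DESeq2 called 0. The median log2 fold change was 0.09, with 67 of 79 positive, beside 0.00 over all genes, and the values ran from -0.45 to 0.44. The smallest p belonged to Rpl18, Rps4l and Rps27. Rpl18 averaged 297 ± 9.0 CPM in Blm KO and 251 ± 18.4 CPM in WT (log2 fold change 0.24 ± 0.09 SE, adjusted p = 0.217). Rps4l averaged 34 ± 2.00 CPM in Blm KO and 39.8 ± 0.999 CPM in WT, and Rps27 averaged 279 ± 16.8 CPM in Blm KO and 220.5 ± 22.5 CPM in WT.

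Against WT, 16 of the 79 genes (20.3%) fell in the libraries labelled Recql KO and none rose. Over all genes tested, 29.9% were called, 15.6% lower and 14.2% higher. The share that fell was thus near the background in this fit, and no ribosomal protein gene was called in the other direction. DESeq2 called 21 lower (26.6%, against 17.8% of all genes), and edgeR with RLE scaling 13 (16.5%, against 15%). With only the groups compared, 24 were called lower (30.4%, against 16.2%). The median log2 fold change of the 79 was -0.23, against -0.01 over all genes; the interquartile range was -0.30 to -0.15, against -0.31 to 0.27 over all genes. It was negative for 76 of 79, and the exceptions included Rps27l at 0.02 and Rpl39l at 0.76. The 16 genes included Rpl3, Rpl7a, Rpl8, Rpl10, Rpl10a, Rpl11, Rpl12, Rpl18, Rpl41 and Rplp0 of the 60S subunit (10 of 47) and Rps2, Rps4x, Rps9 and Rpsa of the 40S subunit (where 6 of 32 were called). Their fitted levels were 69.2% to 83.7% of WT.

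The count of called genes depended on each library in turn. It was 5, 4 and 8 without Recql KO replicates 1, 2 and 3, and 9, 7 and 5 without WT replicates 1, 2 and 3, which is 5.06% to 11.4% of the 79. Of all genes, 8.84% to 12.6% were called lower in these fits. Rpl7a, Rpl10, Rps2 and Rpsa were called in all 6 of them, and the median log2 fold change stayed between -0.26 and -0.17. In 50 of the 79 genes all 3 Recql KO libraries lay below the other 9, which held for 13.7% of all genes, and in none did they lie above, which held for 13.5%.

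Rpl10 (chromosome X, 74270812 to 74273135, plus strand in mm10) had the lowest log2 fold change of the called genes. It encodes a 60S protein that joins late and lies near the peptidyl transferase centre. Its level was 521, 529 and 544 CPM in the Recql KO libraries, against 750.5, 757 and 795 CPM in WT. It was 843, 849 and 895 CPM in the Blm KO and 745, 691 and 969 CPM in the double KO libraries. The Recql KO values lay below all others with no overlap, and replicate 3 of double KO was the highest of the 12. The log2 fold change against WT was -0.53 ± 0.11 (SE; edgeR adjusted p = 0.00619).

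Rps2 (chromosome 17, 24718116 to 24721929, plus strand) encodes a 40S protein at the mRNA entry channel. It stood at 846, 873 and 851 CPM in the libraries labelled Recql KO, against 1178, 1239 and 1252 CPM in WT, and at 1245, 1301 and 1315 CPM in Blm KO and 1105, 1142 and 1461 CPM in double KO. The 3 Recql KO values were close together and under every other value (log2 fold change against WT -0.51 ± 0.10 SE, adjusted p = 0.00504). Rpsa (chromosome 9, 120127689 to 120132369, plus strand), which encodes a 40S protein also known as the laminin receptor, stood at 931, 906 and 857 CPM in the libraries labelled Recql KO, against 1246, 1124 and 1143 CPM in WT. The groups did not overlap (log2 fold change -0.38 ± 0.09 SE, adjusted p = 0.013). Counts of Rps2 were not whole in 11 libraries, those of Rpl10 in 9 and those of Rpsa in 1.

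Rpl10a, whose product lies at the L1 stalk of the 60S subunit, stood at 270.5, 256 and 272 CPM in the libraries labelled Recql KO, against 387, 351 and 368 CPM in WT. Rpl3, a 60S protein near the peptidyl transferase centre, stood at 602, 607 and 633 CPM in Recql KO against 777, 809 and 795 CPM in WT. Rps4x, an X-linked 40S gene, stood at 589, 615 and 624 CPM in Recql KO against 849, 785 and 837 CPM in WT. For each of these the groups did not overlap, and the log2 fold changes were -0.47 ± 0.12, -0.37 ± 0.10 and -0.43 ± 0.12 (SE), with edgeR adjusted p of 0.0127, 0.0231 and 0.0181. Expected counts of Rpl10a and Rps4x were whole in every library, so shared reads leave no trace in them. Among the 46 tested genes whole in at least 11 libraries, 12 were called lower and the median was -0.25.

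The X chromosome holds 4 of the genes, Rpl10, Rps4x, Rpl36a and Rpl39, and the libraries differed in sex-linked transcripts. The summed CPM of Y-linked genes was above 100 in all 3 WT libraries, in replicate 1 of Blm KO, replicate 1 of Recql KO and replicate 2 of double KO, and at most 28.7 in the other 6. With only the high libraries, 1 remained for each KO label, so calls are not counted. The median log2 fold change for Recql KO against WT was then -0.21. A fit that took the Y-linked level into account called 16 members lower (20.3%, against 12.4% of all genes), with a median of -0.24. The 4 X-linked genes had a median of -0.36, and 2 of them were called.

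**Figure D3:**
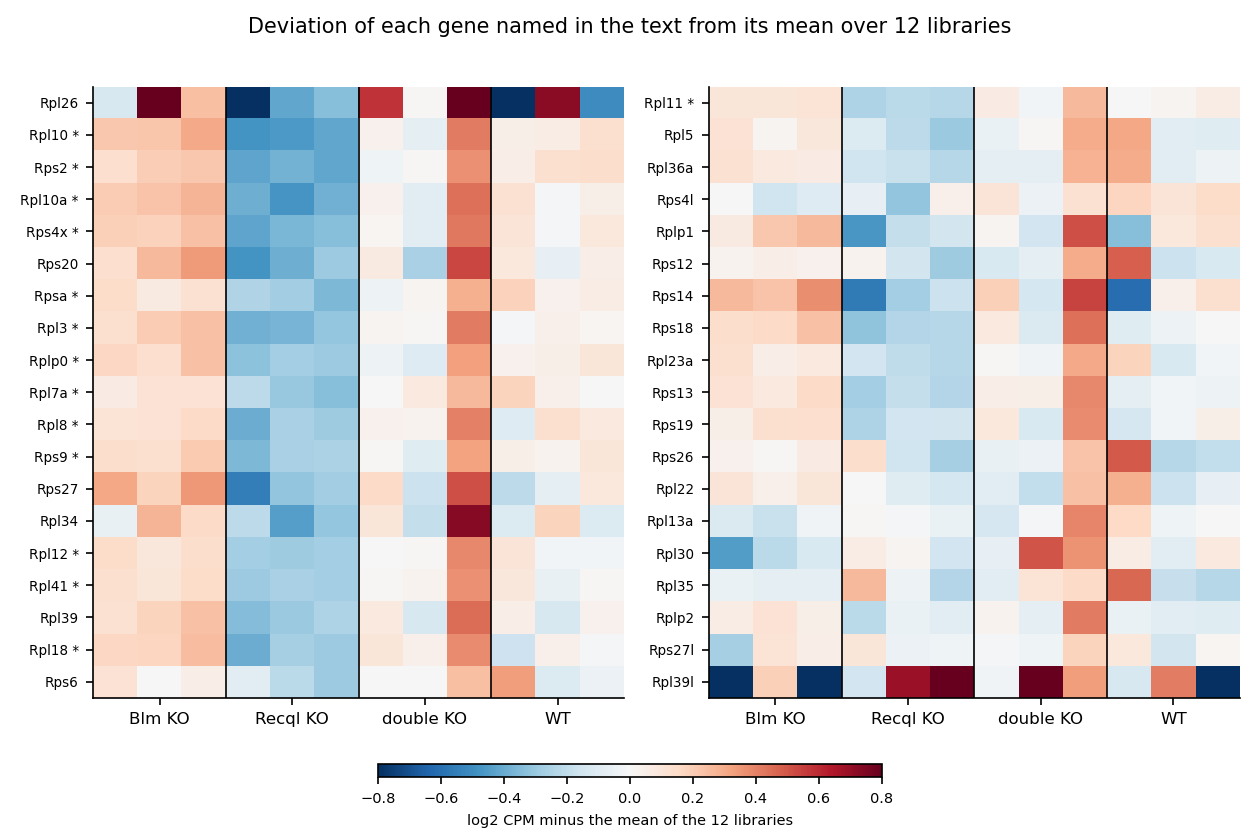
Each row is 1 of the 38 members named in the text and each column 1 library (replicates 1 to 3 within a label); colour is log2 CPM minus the gene's mean over the 12 libraries, capped at 0.8 in either direction. Rows run from the lowest to the highest log2 fold change of Recql KO over WT, stars mark the 14 of these that were called, and the Recql KO columns are blue for most rows while the third double KO column is red in every row.

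Stalk and checkpoint genes followed the class to different degrees. Rplp0, Rplp1 and Rplp2 encode the acidic stalk that recruits translation factors. Rplp0 fell to 987 ± 19.2 CPM in Recql KO, against 1264 ± 29.7 CPM in WT (log2 fold change -0.36 ± 0.11 SE, adjusted p = 0.0277). Rplp1 averaged 276 ± 32.3 CPM in Recql KO and 324 ± 55.2 CPM in WT (adjusted p = 0.344) and Rplp2 averaged 133 ± 7.78 CPM in Recql KO and 136 ± 2.21 CPM in WT (adjusted p = 0.844), and neither passed the test with edgeR. Whether the 3 stalk genes differ in their change was not tested.

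Rpl11, one of the proteins that bind MDM2, stood at 286, 292 and 289 CPM in the libraries labelled Recql KO, against 339.9, 343 and 353 CPM in WT. The groups did not overlap, and with little spread a small log2 fold change of -0.26 ± 0.07 (SE) passed (edgeR adjusted p = 0.0258). Rpl5, its partner in the 5S particle, stood at 778, 723 and 683 CPM in Recql KO against 1037, 789 and 783 CPM in WT, with WT replicate 1 far above the other 2 and the groups separated by a small margin. Its log2 fold change of -0.26 ± 0.13 was as large but did not pass (adjusted p = 0.149). Rps19, mutated in human Diamond-Blackfan anaemia, averaged 222 ± 8.88 CPM in Recql KO and 246 ± 15.6 CPM in WT (adjusted p = 0.326). Rps6 averaged 718 ± 53.0 CPM in Recql KO and 867 ± 149.7 CPM in WT (adjusted p = 0.115).

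Paralogs of 3 members were measured beside their parents. Rps27l, which p53 induces in human cells, stood at 116, 105 and 106 CPM in Recql KO libraries, against 115, 97.6 and 109 CPM in WT, and the groups overlapped. Its parent Rps27 stood at 157, 185 and 189 CPM in Recql KO against 199, 219 and 244 CPM in WT, and the groups did not overlap, although the difference did not pass (log2 fold change -0.32 ± 0.15 SE, adjusted p = 0.14). As a ratio of CPM, not scaled for length, Rps27l was 55.8% to 73.9% of its parent in Recql KO and 44.6% to 57.7% in WT. Rpl39l stood at 3.24, 5.83 and 7.58 CPM in Recql KO and 3.31, 4.81 and 1.69 CPM in WT, which was 2.20% to 4.82% of Rpl39 in Recql KO and 0.880% to 2.82% in WT, and the groups overlapped. Rps4l averaged 33.5 ± 4.14 CPM in Recql KO and 39.8 ± 0.999 CPM in WT (adjusted p = 0.0685). No difference between a paralog and its parent was tested.

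In the double KO set against WT, the class was not lower. The count was 0 of 79, against 0.121% of all genes. An unadjusted p under 0.05 was found for 2, against 10.8% of all genes, and DESeq2 called 0. The median log2 fold change was 0.09, beside 0.01 over all genes, with 72 of 79 positive. Without replicate 3 of double KO it was -0.03. Rps13, Rpl18 and Rplp2 had the smallest p. Rps13, a 40S protein, averaged 239 ± 33.1 CPM in double KO and 206 ± 3.67 CPM in WT (log2 fold change 0.21 ± 0.09 SE, adjusted p = 0.419). Rpl18 averaged 293 ± 37.8 CPM in double KO and 251 ± 18.4 CPM in WT, and Rplp2 159 ± 29.4 CPM in double KO and 136 ± 2.21 CPM in WT.

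Set against the libraries labelled Recql KO, those labelled double KO had higher ribosomal protein mRNA. Of the 79 genes, 37 rose (46.8%) and none fell, against 24.7% of all genes called, 13.2% higher and 11.6% lower, so the share that rose was above the background. The median log2 fold change was 0.32, beside 0.02 over all genes, and 78 of 79 were positive. The called genes were 122% to 151% of the Recql KO level and comprised 18 of 32 genes of the 40S and 19 of 47 of the 60S subunit. In 58 of 79 genes the 3 double KO libraries lay above all 3 Recql KO libraries, which held for 22.5% of all genes.

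Replicate 3 of double KO weighed on this count. In that library all 79 genes lay above their own mean over the 12 libraries, against 47 in replicate 1 and 24 in replicate 2, and 12, 2 and 2 in replicates 1 to 3 of Recql KO. Without it, 16 genes rose (20.3%), against 8.76% of all genes, and the median was 0.19. The count was 33 (41.8%) without double KO replicate 1 and 54 (68.4%) without replicate 2, against 10.3% and 12.5% of all genes called higher in those fits. It was 17, 15 and 18 without Recql KO replicates 1, 2 and 3, which is 21.5%, 19% and 22.8%, against 7.29%, 7.2% and 9.34% of all genes. With only the 6 libraries compared it was 15 (19%), against 11.2% of all genes. In all 6 fits that left out a library of these groups, 13 genes were called, among them Rpl3, Rpl7a, Rpl10, Rpl10a, Rps2 and Rps4x.

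The genes named by size in this comparison were Rpl10, Rps27, Rpl10a, Rps20, Rps2 and Rpl3. Rps27, a zinc-binding 40S protein, stood at 255, 204 and 328 CPM in double KO libraries, against 157, 185 and 189 CPM in Recql KO libraries. All 3 double KO values were higher, over a broad range (log2 fold change 0.57 ± 0.15 SE, edgeR adjusted p = 0.022). Rps20, a 40S protein of the head, stood at 363, 289 and 498 CPM in double KO, against 248, 263 and 282 CPM in Recql KO. The lowest double KO value was just above the highest Recql KO value (log2 fold change 0.54 ± 0.16 SE, adjusted p = 0.033). Rpl10 had the largest called log2 fold change, 0.59 ± 0.11 (adjusted p = 0.00424), and the values were 0.56 for Rpl10a, 0.53 for Rps2 and 0.52 for Rpl3. This comparison and that of Recql KO with WT share the Recql KO libraries.

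Rpl26 had a larger log2 fold change, 1.37 ± 0.48, without passing the test (adjusted p = 0.0599). Its product binds Trp53 mRNA and promotes its translation. It stood at 36.0, 24.2 and 59.0 CPM in double KO and 8.86, 18.1 and 19.0 CPM in Recql KO, and spread over 13, 39.8 and 17.0 CPM in WT and 22.1, 44.2 and 28.5 CPM in Blm KO. The spread within a label was as wide as that between labels.

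Between double KO and Blm KO, 0 of 79 genes passed, against 1.96% of all genes. At an unadjusted p under 0.05 there were 2, against 23.3% of all genes, and DESeq2 called 1, Rpl30. The median log2 fold change was 0.01, with 46 positive, and it was -0.12 without replicate 3 of double KO. Rpl30, a 60S protein whose level is uncertain for the reason above, stood at 12.9, 19.2 and 17.4 CPM in double KO, against 9.93, 11.6 and 12.5 CPM in Blm KO, and the groups did not overlap (log2 fold change 0.54 ± 0.14 SE, edgeR adjusted p = 0.0763). Rpl39l averaged 5.46 ± 2.5 CPM in double KO and 2.40 ± 1.5 CPM in Blm KO, and Rpl13a, which in human cells also serves in the GAIT complex that represses inflammatory mRNAs, averaged 623 ± 123 CPM in double KO and 541 ± 27.5 CPM in Blm KO. Replicate 3 of double KO gave the high end for Rpl13a.

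The interaction asks whether the difference between double KO and Blm KO departs from that between Recql KO and WT. No member passed, against 10.4% of all genes. Of the 79, 15 had an unadjusted p under 0.05, against 28.3% of all genes, and DESeq2 called 3 (Rps2, Rpl7a and Rpsa). The median interaction was 0.24, beside 0.01 over all genes, and 78 of 79 were positive. The smallest p were those of Rps2 with 0.46 ± 0.15 (SE, edgeR adjusted p = 0.0693), Rpl7a with 0.37 ± 0.12 (adjusted p = 0.0748) and Rps4l with 0.39 ± 0.13 (adjusted p = 0.082). Rpl7a, a 60S protein, stood at 618, 655 and 742 CPM in double KO and 651, 672 and 673 in Blm KO, and at 537, 504 and 491 in Recql KO and 702, 637 and 619.6 in WT. Only the Recql KO values stood apart there. Without replicate 3 of double KO the median interaction was 0.10.

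**Figure D4:**
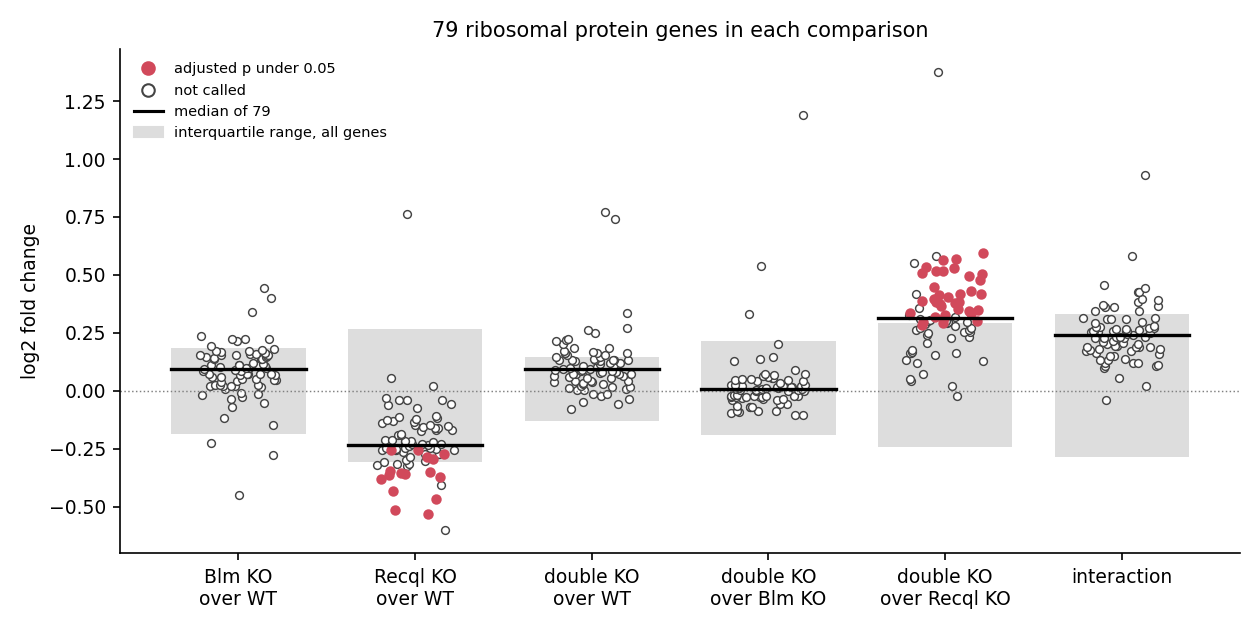
Log2 fold change of each of the 79 genes (points) in 5 comparisons and the log2 interaction, with the first-named label over the second; filled points had an adjusted p under 0.05, black bars are medians and grey boxes the interquartile range of all 14876 genes. The points sit below 0 for Recql KO over WT (median -0.23) and above 0 for double KO over Recql KO (median 0.32).

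A test of any difference among the 4 labels called 26 of 79 genes, 32.9%, against 35.9% of all genes. Rpl10, Rps2, Rpl18 and Rpl10a were among the 5 with the smallest p. Rpl18 stood at 290.4, 292 and 307 CPM in Blm KO, 197, 215 and 212 CPM in Recql KO, 277, 266 and 336 CPM in double KO and 231, 266 and 257 CPM in WT. Its Recql KO and WT values were separate and its Blm KO values were above both. Without replicate 1 or 3 of Blm KO the count was 17 (21.5%) or 14 (17.7%), against 31.4% and 24.2% of all genes in those fits. Without replicates 1, 2 and 3 of Recql KO it was 7, 6 and 8 (8.86%, 7.59% and 10.1%), against 21.9%, 20% and 25.6% of all genes. Without replicate 2 of double KO it was 43 (54.4%), against 39% of all genes.

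Genes around the ribosome were read next, by lists chosen with earlier results of these data known. Of 7 further cytosolic ribosomal proteins and paralogs whose symbols the name rule does not take, Rpl22l1 alone fell in the libraries labelled Recql KO relative to WT, and 3 rose in double KO relative to Recql KO. Rpl22l1, a paralog of Rpl22, stood at 29.9, 30.6 and 36.0 CPM in Recql KO, against 51.2, 72.0 and 69.1 CPM in WT, and at 73.9, 94.4 and 91.6 in Blm KO and 76.4, 73.1 and 117 in double KO. Its Recql KO values were under all others (log2 fold change against WT -1.0 ± 0.19 SE, adjusted p = 0.00433), and Rpl22 itself was at -0.11. Rpl22l1 was 12% to 15.9% of the Rpl22 level in CPM in Recql KO and 16.8% to 32.5% in WT. Rps3a1 and Gnb2l1, the 40S proteins eS1 and RACK1, had log2 fold changes of -0.27 ± 0.11 and -0.31 ± 0.12 in Recql KO against WT without passing, and rose in double KO against Recql KO by 0.39 and 0.47.

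Other genes whose mRNAs also carry a TOP motif were counted next. Most are translation factors, but the list also holds Tpt1, Hnrnpa1, Nap1l1 and Naca. Of 14, 3 (21.4%) fell and none rose in Recql KO against WT, with a median log2 fold change of -0.25. Of all genes, 15.6% were called lower and 14.2% higher there. In double KO against Recql KO, 7 of the 14 rose and none fell, with a median of 0.26, where 13.2% of all genes were called higher and 11.6% lower. The shares over all genes in these 2 comparisons hold for the lists that follow as well. Eif4b, a helper of the helicase eIF4A, stood at 375, 375 and 375 CPM in Recql KO and 574, 483 and 533 CPM in WT, with no overlap (log2 fold change -0.50 ± 0.12 SE, adjusted p = 0.0111). Hnrnpa1, an RNA-binding protein, was at -0.78 ± 0.13 (adjusted p = 0.0024), and Naca, of the nascent chain complex, at -0.28 ± 0.09 (adjusted p = 0.0443). Eef1a1, the elongation factor that brings tRNAs to the ribosome, averaged 7666 ± 80.1 CPM in Recql KO and 9539 ± 474 CPM in WT and did not pass with edgeR (adjusted p = 0.0769).

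Other parts of ribosome production followed. Of 77 mitochondrial ribosomal protein genes, 2 (2.6%) were called higher and 7 (9.09%) lower in Recql KO against WT, with a median of -0.01. In double KO against Recql KO, 10 (13%) were higher and 1 (1.3%) lower, with a median of 0.06. Of 45 assembly factors, 4 were higher (Mdn1, Sbds, Utp20 and Noc3l) and 2 lower (Npm1 and Emg1), with a median of 0.08 in Recql KO against WT, and 1 was higher and 3 lower in double KO against Recql KO. Mdn1, a large ATPase that remodels 60S precursors, was at 0.99 ± 0.12 (SE, adjusted p = 0.000531), and Npm1, an abundant nucleolar chaperone, at -0.41 ± 0.12 (adjusted p = 0.0261). Of 15 RNA polymerase I genes, 2 were higher and 4 lower in Recql KO against WT, with a median of 0.01, and 5 were higher and 1 lower in double KO against Recql KO, with a median of 0.07. They included Taf1b, of the promoter selectivity factor, at -0.57 ± 0.09 (adjusted p = 0.00163) and Polr1a, the largest subunit of the enzyme, at 0.41 ± 0.10 (adjusted p = 0.0127). In double KO against Recql KO, Mdn1 was at -0.79, Npm1 at 0.41 and Polr1a at -0.35, each called.

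Of 24 genes of the mTORC1 pathway and of TOP mRNA regulation, 5 were higher and 5 lower in Recql KO against WT, with a median of 0.07, and 3 were higher and 3 lower in double KO against Recql KO. Mtor, the kinase itself, stood at 79, 78.7 and 79.4 CPM in Recql KO, against 49.6, 61.2 and 60.4 CPM in WT, and the groups did not overlap (log2 fold change 0.47 ± 0.09 SE, adjusted p = 0.0047). Rragb and Rragd encode Rag GTPases that recruit mTORC1 to lysosomes, and were at -1.05 ± 0.34 (adjusted p = 0.0392) and 0.89 ± 0.20 (adjusted p = 0.00843). Sesn1, an inhibitor of the pathway, was at -0.72 ± 0.14 (adjusted p = 0.00404). Larp1, which binds the TOP motif, was at 0.14 ± 0.09 and was not called (adjusted p = 0.239). As another set of short and abundant mRNAs, 81 other genes of at most 1000 bases and above 100 CPM had 18 higher and 12 lower calls and a median of -0.02.

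**Figure D5:**
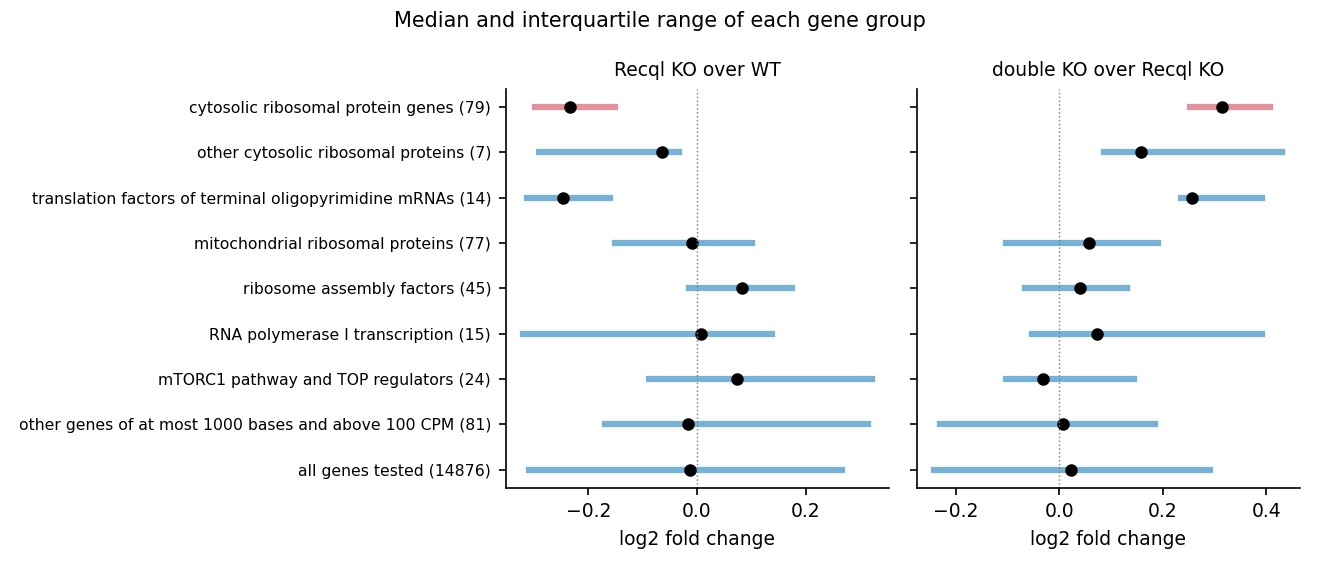
Median log2 fold change (black dot) and interquartile range of the genes (bar) for each group, with the number tested in brackets, for Recql KO over WT (left) and double KO over Recql KO (right). The cytosolic ribosomal protein genes (medians -0.23 and 0.32) and the other TOP-bearing genes (-0.25 and 0.26) have bars on one side of 0. The plot labels the latter translation factors, although the list holds some other genes. The bars of the mitochondrial ribosomal proteins (medians -0.01 and 0.06) cross 0.

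Markers of other cell types moved with the labels. Cartilage markers (Sox9, Col2a1, Acan, Col9a1) summed to 654 to 905 CPM in Blm KO, 80.2 to 96.6 in Recql KO, 297 to 959 in double KO and 585 to 1375 in WT libraries, and 3 of 4 were called lower in Recql KO than in WT. Endothelial markers summed to 3.13 to 4.77 CPM in Recql KO and 21.4 to 30.7 in WT (4 of 6 lower). Epithelial and mesothelial markers summed to 10.3 to 16.8 in Recql KO and 31.9 to 79.4 in WT (3 of 6 lower). Muscle markers summed to 8.74 to 23.1 in Recql KO and 41.9 to 61.8 in WT (2 of 4 lower). Des made up nearly all of the muscle sum, with a mean of 16.5 CPM in Recql KO and 47.5 CPM in WT. Myh3, Actc1 and Ttn averaged only 0.38, 0.59 and 0.25 CPM in WT. Neural markers summed to 257 to 263 in Recql KO and 138 to 155 CPM in WT (2 of 5 higher), and macrophage and blood markers to 4.02 to 6.23 in Recql KO and 6.03 to 15.3 in WT (2 of 5 lower), with Hbb-bs at 0 in every library. Of 14 proliferation genes, 4 (Cdc20, Ccnb1, Ccnb2 and Plk1) were called lower in Recql KO than in WT, while 3 had a positive log2 fold change. The list summed to 957 to 1224 CPM in Recql KO, 853 to 1054 in Blm KO and 1371 to 1653 in WT libraries. Between Blm KO and WT, 0 of the 14 were called, and all 14 log2 fold changes were negative. Of 10 fibroblast markers, 3 collagen genes were lower and Dcn was higher. In double KO against Recql KO, 3 of 4 cartilage, 3 of 6 endothelial, 3 of 6 epithelial and mesothelial, 2 of 4 muscle, 1 of 5 macrophage and blood, 4 of 10 fibroblast and 4 of 14 proliferation genes were higher and none of these lists had a lower call, while 1 neural gene was higher and 1 lower. In double KO the sums were 15.5 to 20.7 CPM for endothelial, 47.1 to 71.5 for epithelial and mesothelial, 54.5 to 151 for muscle and 914 to 1740.2 for proliferation genes. The part of these differences in the ribosomal protein results was not tested.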

How the data were processed

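The deposited data are expected counts, 1 value per gene and library, in a single table of 12 columns. The kit was KAPA Stranded mRNA, on polyadenylated RNA, per the labels' protocols. Per the submitters' processing notes, Bowtie2 2.1.0, RSEM 1.2.15 and the mouse build mm10 were used. For annotation, strand setting and read filters, the processing is not given in the sources used here.

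The values were rounded to whole numbers for edgeR 4.0.16 in R 4.3.3. Its function filterByExpr kept 14876 genes with 99.99% of counts, and the factors of its TMM scaling lay between 0.96 and 1.03. All 12 libraries entered 1 fit with a mean for each label (8 residual degrees of freedom), and differences were tested with the robust quasi-likelihood F test, two-sided, with Benjamini-Hochberg adjustment over all genes tested. A call means an adjusted p under 0.05. The SE is the log2 fold change divided by the square root of F. The script was tested on simulated data. Gene positions and transcript lengths came from GENCODE M21, and promoter windows from RefSeq. A level per kb can be off where a transcript other than the shortest principal one is made.

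The members, the gene lists and the rule for named genes were chosen with earlier results of these data known. The rule takes in each comparison the called members of highest (up to 6) and lowest (up to 6) log2 fold change, or the 3 with the smallest p where fewer than 3 were called, the 5 highest and 5 lowest per kb, the 5 with the smallest p for any difference, paralogs with their parents, Rpl5, Rpl11, Rpl26, Rps6, Rps19, Rpsa and the stalk genes, and up to 3 called genes per other list. Genes outside it (Mtor, Larp1, Npm1, Noc3l, Emg1, Eef1a1, Rpl22 and the genes of the last observations) were named after their values were seen. The mitochondrial ribosomal protein list was added after the files were opened. Alternatives were RLE scaling, TMM factors without the members, no filter, CPM above 1 in at least 3 libraries, a replicate block, the Y-linked level as a covariate, only libraries with a high Y-linked level, only the groups compared, DESeq2 1.42.0, leaving out each library, and, added after seeing the data, only members with whole counts. Some members that the rule takes are counted in the totals but not reported by name here, and the plots of single genes show the members that the text names. No library was left out of the main results. Same-numbered libraries were not paired in the labels.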

Additional observations from a re-analysis of the deposited data

How the results depend on the processing

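The direction of each median log2 fold change outside 0.05 in size held in every alternative except those named here. With only libraries of high Y-linked level, the medians were -0.060 for double KO against WT and -0.15 for double KO against Blm KO. They were 0.14 for double KO against Recql KO and 0.041 for the interaction. Each KO label then had 1 library, whose spread was taken from WT, so calls are not counted. With only the groups compared, 15 members were called in double KO against Recql KO (19%, against 11.2% of all genes called higher). DESeq2 called 1 in double KO against Blm KO, 3 for the interaction and 42 for any difference. The 42 were 53.2% of the members, against 47.9% of all genes. Only members with whole counts gave 23 in double KO against Recql KO, of 46 tested (50%, against 13.2% of all genes called higher). With the replicate block, 1 member (Rps4l) was called for the interaction. That fit called 18 for Recql KO against WT (22.8%, against 16.3% of all genes lower). It called 39 for double KO against Recql KO (49.4%, against 13.7% of all genes higher). Of 18 same-number correlations of deviations over all genes tested, 5 were over 0.1 (-0.17 to 0.23). Pairs of unlike numbers ran from -0.31 to 0.23. The deviations were centred within each label, so this cannot tell whether a number marks a shared batch or day. Leaving out each library gave 4 to 9 calls for Recql KO against WT, 15 to 54 for double KO against Recql KO and 6 to 43 for any difference. It gave 0 to 2 for the interaction and 0 to 1 for double KO against Blm KO. In these fits 8.84% to 12.6% of all genes were called lower in Recql KO against WT. The share of all genes called higher in double KO against Recql KO was 7.2% to 12.5%, and for any difference it was 20% to 39%. The medians ranged from -0.26 to -0.17 for Recql KO against WT, 0.19 to 0.38 for double KO against Recql KO, -0.029 to 0.16 for double KO against WT, -0.12 to 0.078 for double KO against Blm KO, 0.05 to 0.16 for Blm KO against WT and 0.10 to 0.31 for the interaction. RLE scaling, TMM factors without the members and a CPM filter left every count within 1.5 times. The cause of these changes was not tested, beyond the smaller number of libraries or genes. Precision was limited by the spread of 3 libraries; at these totals 3 counts correspond to 0.0506 to 0.0628 CPM.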

Other observations

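Ribosomal protein genes did not all follow the class within a label. In the first WT library and the first Recql KO library, a set of genes stood high and another low relative to replicates 2 and 3; these genes were chosen after their values were seen. Rps26, a 40S protein, stood at 452, 367 and 341 CPM in Recql KO and 578, 350.3 and 358 CPM in WT, beside 419.8, 413 and 429 CPM in Blm KO and 394, 398 and 480.2 CPM in double KO. Rps12 stood at 481, 425 and 386 CPM in Recql KO and 657, 417 and 434 CPM in WT, and Rpl35 at 457, 371 and 324 CPM in Recql KO and 524, 335 and 325 CPM in WT. Replicate 1 was the highest of its label for these genes in Recql KO and in WT. Rps14 went the other way, with 205, 252 and 269.8 CPM in Recql KO and 199, 314 and 332 CPM in WT, and replicate 1 the lowest of each.

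The log2 CPM of replicate 1 minus the mean of replicates 2 and 3 had an SD over the 79 genes of 0.22 in Recql KO, 0.12 in Blm KO, 0.10 in double KO and 0.27 in WT. Across the 79 genes this deviation in Recql KO and that in WT, which share no library, had a Pearson r of 0.72 and a Spearman rho of 0.78, while across all 14876 genes the values were 0.01 and 0.16. The deviation in WT had an r of 0.47 and a rho of 0.49 with that in Blm KO, and -0.18 and -0.22 with that in double KO, across the 79 genes. These are descriptions across genes, which are not independent, and Rpl26 holds the lowest value in both, -1.06 in Recql KO and -1.0 in WT. With the GC percent of the transcript, the deviation in Recql KO had an r of -0.03 and a rho of -0.21 across the 79 genes, and an r of -0.14 and a rho of -0.23 across the 14159 genes with a GC value. In WT the r was -0.31 and the rho -0.41 across the 79 genes, and -0.24 and -0.34 across the 14159.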
